A study of Carassius auratus with 9 samples.

Results

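Back skin libraries of celestial goldfish (Carassius auratus) that carry the replicate number 3 were compared with the libraries numbered 1 and 2 of the same skin color. The comparison takes 3 of the 9 libraries of the series, 1 each from brown, white and yellow skin, and sets them against the other 6, with skin color as a block. All 9 libraries came from skin of fish aged 4 months, labelled as 3 biological replicates per color and made from total RNA with a SMARTER mRNA-Seq kit. No treatment or genotype is given, and the labels say neither how fish and pieces were matched to numbers nor whether equal numbers share a day or a batch. The contrast was chosen with it already known that skeletal muscle genes were highest in replicate 3 of each color, so the muscle result is a description of size and extent and not independent evidence.

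A piece of fish back skin holds an epidermis of keratinocytes and mucous cells, a dermis of collagen-rich connective tissue with scales, pigment cells, vessels with nucleated red blood cells, nerves and resident immune cells. Under the dermis lie fat and the trunk muscle, most of which is fast, glycolytic muscle packed with parvalbumin and creatine kinase. In bulk RNA, fewer cells of a type and less RNA per cell cannot be told apart.

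Between 13772601 and 17359648 reads per library were recovered from the deposited FPKM values, a level per kilobase of gene length after scaling each library. The yellow replicate 3 library had reads on 36617 genes, the fewest, and the next fewest were 39217 in brown replicate 2, which also had the highest mitochondrial share of reads at 2.94%. The authors' scaling gave the 3 libraries numbered 3 a denominator of 0.675 to 0.762 times their reads, against 1.08 to 1.39 in the other 6. An equal share of reads is therefore a higher FPKM in the libraries numbered 3, and shares and FPKM levels are kept apart below. In all 9 libraries the authors' denominator was the same multiple of a median-of-ratios size factor recomputed from the reads. That factor is the middle ratio of a library's reads to their geometric mean over libraries, taken over genes read in every library. Keratin, collagen, hemoglobin and pigment cell genes were present in all 9 libraries, as the skin label requires.

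Genes were tested on log2(FPKM + 1) with limma, and a gene was called at a Benjamini-Hochberg adjusted p under 0.05 over the 27420 genes tested. In replicates 3, 1306 genes rose (4.76% of those tested) and 175 fell (0.638%), together 5.4%. Of the called genes, 1303 of those that rose lay above both other libraries in each of the 3 colors, and 171 of those that fell lay below both. Over all tested genes, 12.1% lay above both others in each color and 8.7% lay below both. The lowest adjusted p was 0.0186. Without white replicate 3, or without any 1 of the 3 yellow libraries, 0 genes passed in limma, with 3426 to 4868 at an unadjusted p under 0.05. Without brown replicate 2, by contrast, 3250 genes rose and 2637 fell. Without brown replicate 1 there were 725 and 21, without white replicate 1 there were 688 and 28, and without brown replicate 3 there were 1203 and 503. The difference between replicates 3 and the others was not called as dependent on color for any gene in limma's interaction F test (0%, with 1557 genes at an unadjusted p under 0.05 and 3 residual degrees of freedom).

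The size of the background difference and the balance of rises and falls also depended on the scaling. The median log2 difference of all tested genes was -0.05 on the authors' scale, -0.30 when libraries were scaled to the reads outside the skeletal muscle list and -0.94 in TPM. A small value on the authors' scale follows from how its denominators are set, by the middle ratio between libraries. In TPM, 697 genes rose and 15492 fell. Differences are therefore best read against the median of all genes.

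**Figure D1:**
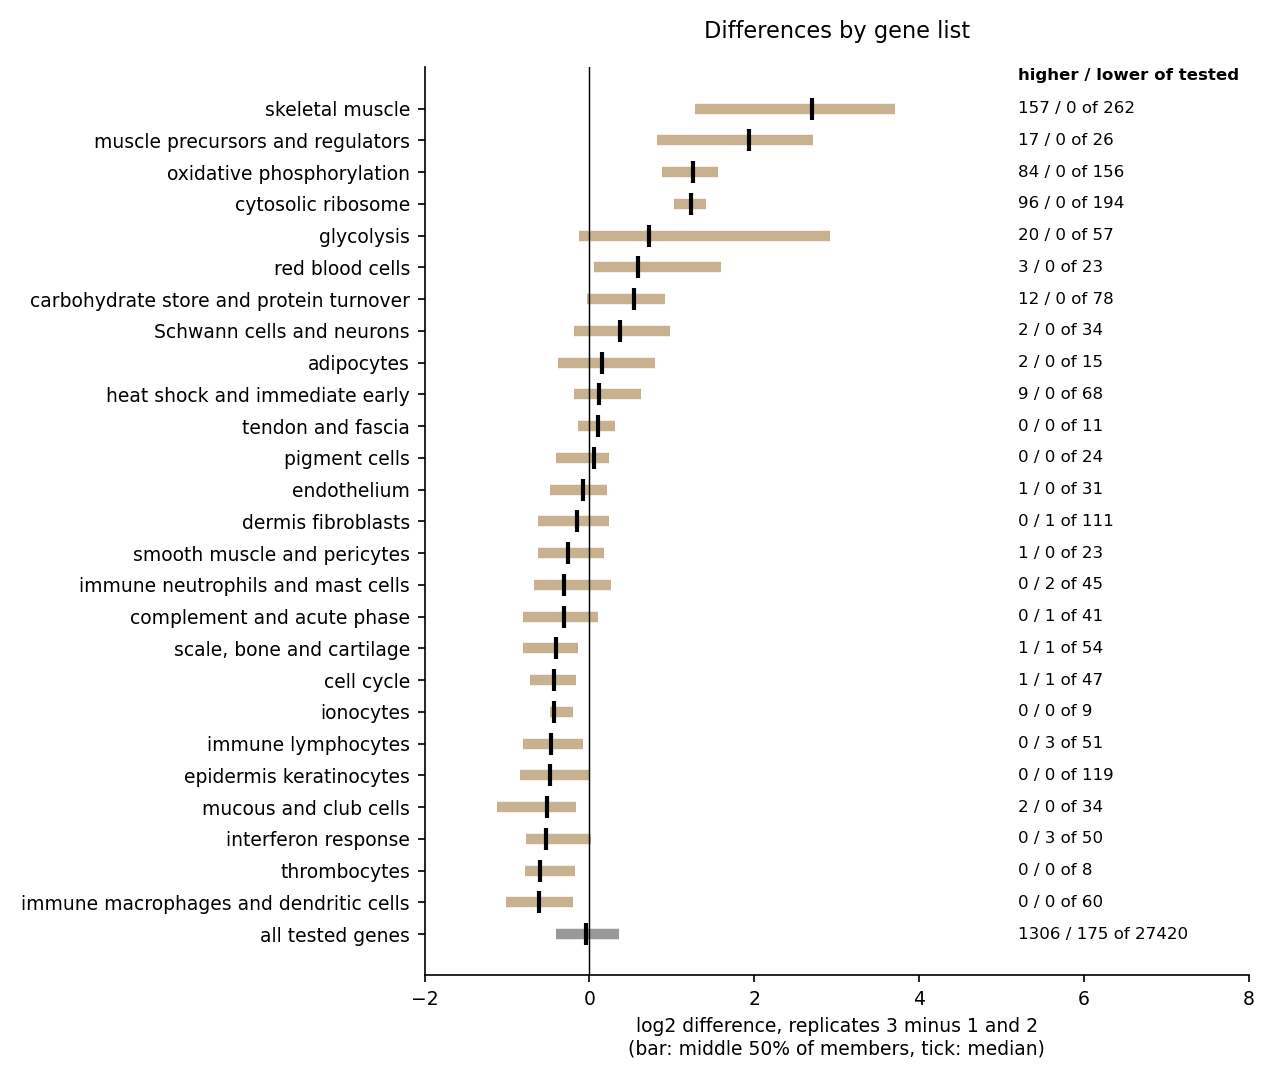
Log2 difference of FPKM between replicates 3 and replicates 1 and 2 (x axis) for each gene list (rows, ordered by median) and for all tested genes. Bars span the middle 50% of members, ticks are medians, and the text gives how many members rose and fell of those tested; skeletal muscle stands at a median of 2.70 and all genes at -0.05.

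Skeletal muscle genes were far higher in the libraries numbered 3. Their list of 425 genes covers the contractile filaments, the Z disc and M band, calcium handling and energy supply, and 262 members passed the filter on low values, which asked for 3 or more libraries with an FPKM of 1 or above. Of these, 157 rose (59.9%, against 4.76% of all genes) and 0 fell, at a median log2 difference of 2.70. The filter can be met by the 3 libraries numbered 3 alone: 200 members met it in the other 6 libraries by themselves, of which 124 rose, at a median of 3.09, and with no filter the median over 401 members was 1.27. Among all genes that met it in those 6 libraries, 972 of 25204 rose. The list took 8.62%, 3.06% and 22.6% of all summed FPKM in brown replicates 1, 2 and 3, 3.23%, 18.9% and 39.7% in white, and 0.416%, 1.42% and 30.5% in yellow. The 3 libraries numbered 3 all lay above the other 6, and the nearest of those was white replicate 2. The share in replicate 3 was 3.87 times the mean of the other libraries in brown, 3.58 times in white and 33.2 times in yellow. As a share of recovered reads the list spanned 22.6% to 38.4% in replicates 3 and 0.380% to 13.8% in the others. With each library left out in turn the list's median stayed between 2.30 and 3.04, while its count of rising genes ran from 0 (without white replicate 3 or any 1 yellow library) to 195.

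**Figure D2:**
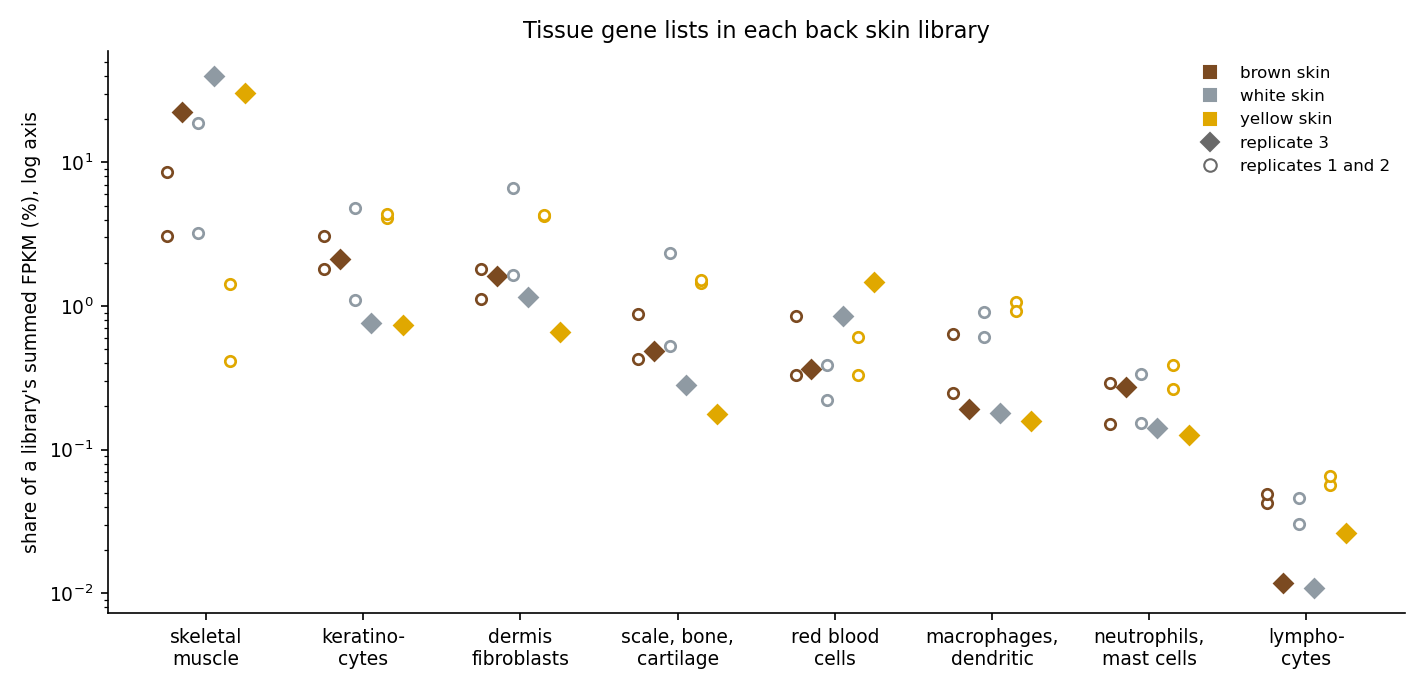
Share of each library's summed FPKM (log axis) taken by 8 tissue gene lists; each point is 1 library, colored by skin color, with filled diamonds for replicate 3 and open circles for replicates 1 and 2. The muscle list separates the diamonds (22.6% to 39.7%) from the circles (0.416% to 18.9%), the macrophage and lymphocyte shares lie lower in the diamonds (summed FPKM of both lists, not plotted, overlaps), and keratinocyte, dermis and red blood cell lists overlap.

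Calcium handling genes included the most abundant muscle gene. Parvalbumin, the calcium buffer that speeds the relaxation of fast fibers, was represented by 13 tested genes, with log2 differences of 0.02 to 5.84, of which 7 rose. Parvalbumin beta (LOC113046611, chromosome 28, 6837384 to 6839100), the most abundant, had FPKM values of 6323, 2940 and 39180 in brown, 2013, 14661 and 67813 in white and 192, 753 and 61334 in yellow skin, each for replicates 1, 2 and 3. All 3 libraries numbered 3 lay above the other 6, and the log2 difference was 4.72 ± 0.90 (standard error of the fit, adjusted p = 0.024). Parvalbumin-2-like LOC113056234 had the largest rise among named genes, at 5.84 ± 1.36 (adjusted p = 0.0449). Its FPKM was 313, 61.4 and 1532 in brown, 159, 1100 and 8937 in white and 0.401, 29.1 and 5233 in yellow skin, again with no overlap between replicates 3 and the rest. Calsequestrin-1-like LOC113051750, which binds calcium inside the sarcoplasmic reticulum, was at 1.98, 1.57 and 8.16 in brown, 0.558, 1.49 and 14.3 in white and 0, 0.110 and 18.8 in yellow skin. It rose by 2.97 ± 0.41 (adjusted p = 0.0186). Of the calcium handling group, 40 of 58 tested genes rose (69.0%, against 4.76% of all genes).

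Of the thick filament genes, 19 of 40 tested rose (47.5%, against 4.76% of all genes), at a median log2 difference of 3.09. The fast skeletal myosin heavy chain-like gene LOC113091542, a motor protein of the thick filament, had an FPKM of 29.9, 17.5 and 270.0 in brown, 10.3, 44.8 and 931 in white and 0.367, 3.70 and 433 in yellow skin. Replicate 3 of each color was above every library numbered 1 or 2, and the difference was 5.43 ± 0.76 (adjusted p = 0.0186). A second copy, LOC113048344 on chromosome 29, rose by 5.27 ± 0.76 (adjusted p = 0.0186), from 55.6 and 70.002 to 443 in brown, from 58.8 and 46.6 to 1829 in white and from 1.43 and 3.21 to 759 in yellow skin. In this copy white replicate 2 was no higher than white replicate 1, unlike in the parvalbumins. Goldfish carry duplicated genes, and the sources do not say how reads matching several copies were assigned, so values of near-identical copies are uncertain.

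The thin filament and its calcium switch gave 23 risen genes of 52 tested (44.2%, against 4.76% of all genes), with a median of 1.66. Skeletal alpha-actin (LOC113117808, chromosome 17, 26319121 to 26323373) was at 1194, 396 and 7662 in brown, 424, 2885 and 10901 in white and 41.7, 148 and 6727 in yellow skin, and rose by 4.39 ± 0.82 (adjusted p = 0.0223). Fast troponin T-like LOC113051640, part of the switch that lets calcium start contraction, rose by 4.50 ± 0.86 (adjusted p = 0.0241), with 6656, 13435 and 8684 in replicate 3 of brown, white and yellow skin and 40.7 to 2880 in the other 6 libraries. Fast and slow troponins, a split drawn up after the values were seen, differed in their counts: 7 of 8 tested fast troponin genes rose, at a median of 4.25, and 0 of 12 slow troponin genes did, at a median of 1.10. All 12 slow troponin genes nevertheless had a log2 difference above 0, and 6 lay above both other libraries in each color, as 12.1% of all genes did. They were also far lower, with a summed FPKM of 4.31 to 83.9 in the libraries numbered 1 and 2, against 106 to 6695 for fast troponins. The log2(FPKM + 1) scale understates changes of low genes. The difference between the fast and slow sets was not tested. Slow troponins took 0.132% of the muscle reads in brown replicate 3 but 0.0119% and 0.0100% in white and yellow replicates 3, against 0.0286% to 0.388% in the other 6 libraries. Fast troponins took 5.24% to 6.11% of the muscle reads in replicates 3 and 3.69% to 5.79% in the others.

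Proteins of the Z disc and M band, which anchor the filaments, had the highest count among the muscle groups. Of 73 tested genes 52 rose (71.2%, against 4.76% of all genes), at a median of 2.72. The group counts include members that met the filter on low values only with the help of the libraries numbered 3. How many these are is given above for the whole muscle list and not by group. M-protein-like LOC113045728, an M band protein, was near 0 in most libraries numbered 1 and 2, with FPKM values of 0.0290, 0 and 17.3 in brown, 0.467, 3.09 and 19.04 in white and 0.0718, 0.171 and 12.9 in yellow skin. Its rise of 3.61 ± 0.34 (adjusted p = 0.0186) separated replicates 3 from all others. However, it met the filter on low values only with the help of the libraries numbered 3. Fast-type myosin-binding protein C-like LOC113092660, which cross-links the thick filament, was at 330.2, 707 and 235 in replicate 3 of brown, white and yellow skin and at 2.40 to 188 in the others, a rise of 4.07 ± 0.74 (adjusted p = 0.0214). Kelch-like protein 41b (LOC113050974), a sarcomere assembly factor named after its values were seen, rose by 3.85 ± 0.59 (adjusted p = 0.0186), from 0.775 to 36.4 in the libraries numbered 1 and 2 to 69.5 to 130 in those numbered 3.

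Energy supply genes of muscle rose in 23 of 39 cases (59.0%, against 4.76% of all genes). Creatine kinase M-type (LOC113049569, chromosome 30, 19970706 to 19974736), which regenerates ATP from phosphocreatine, had FPKM values of 4305, 1355 and 29385 in brown, 1155, 7275 and 35347 in white and 122.7, 444.1 and 23289 in yellow skin. The libraries numbered 3 did not overlap with the rest, and the difference was 4.61 ± 0.81 (adjusted p = 0.0202). Beta-enolase (LOC113041673), the muscle form of a glycolytic enzyme, rose by 3.25 ± 0.47 (adjusted p = 0.0186), from 133 to 610.4 in the libraries numbered 1 and 2 to 1972, 2661 and 2971. In its case brown replicate 2 (610.4) was above brown replicate 1 (349), the opposite order to creatine kinase. Of glycolytic enzymes in all tissues, 20 of 57 tested rose (35.1%, against 4.76% of all genes), at a list median of 0.73. Of those 20, 8 are also members of the muscle list. In TPM the list median was -0.39, above the -0.94 of all genes. Glyceraldehyde-3-phosphate dehydrogenase-like LOC113060149 rose by 4.27 ± 0.79 (adjusted p = 0.0222), with 3301, 5174 and 3474 in replicate 3 of brown, white and yellow skin and 21.7 to 818 elsewhere.

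Regulators of muscle formation moved with the contractile genes, and 17 of 26 tested rose (65.4%, against 4.76% of all genes) at a median of 1.94. In the other 6 libraries by themselves 22 met the filter on low values, of which 13 rose, at a median of 1.57, where 972 of 25204 of all genes did. SMYD1-like LOC113084607, a methyltransferase needed for myosin assembly in zebrafish, had FPKM values of 53.6, 35.3 and 319 in brown, 14.8, 103 and 492 in white and 1.62, 8.15 and 427 in yellow skin. Each library numbered 3 was above all others, a rise of 4.30 ± 0.81 (adjusted p = 0.0225). The transcription factor MEF2A-like LOC113091649 rose less, by 1.97 ± 0.38 (adjusted p = 0.0257), to 29.4 to 67.8 from 6.76 to 26.2. MuSK-like LOC113109578, the receptor kinase that organizes the nerve-muscle synapse, was named after its values were seen and rose by 1.63 ± 0.27 (adjusted p = 0.0186), at 0.188 to 1.09 in the libraries numbered 1 and 2 and 2.43 to 4.87 in those numbered 3. The values in libraries 1 and 2 lie near or under the filter's FPKM of 1. MuSK-like may thus have been tested only because of the libraries numbered 3. Ankyrin repeat domain-containing protein 9-like LOC113098433, among the 8 largest named rises, had 14.3, 155 and 121 in replicate 3 of brown, white and yellow skin and 0 to 11.2 elsewhere (log2 difference 4.91 ± 0.72, adjusted p = 0.0186).

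**Figure D3:**
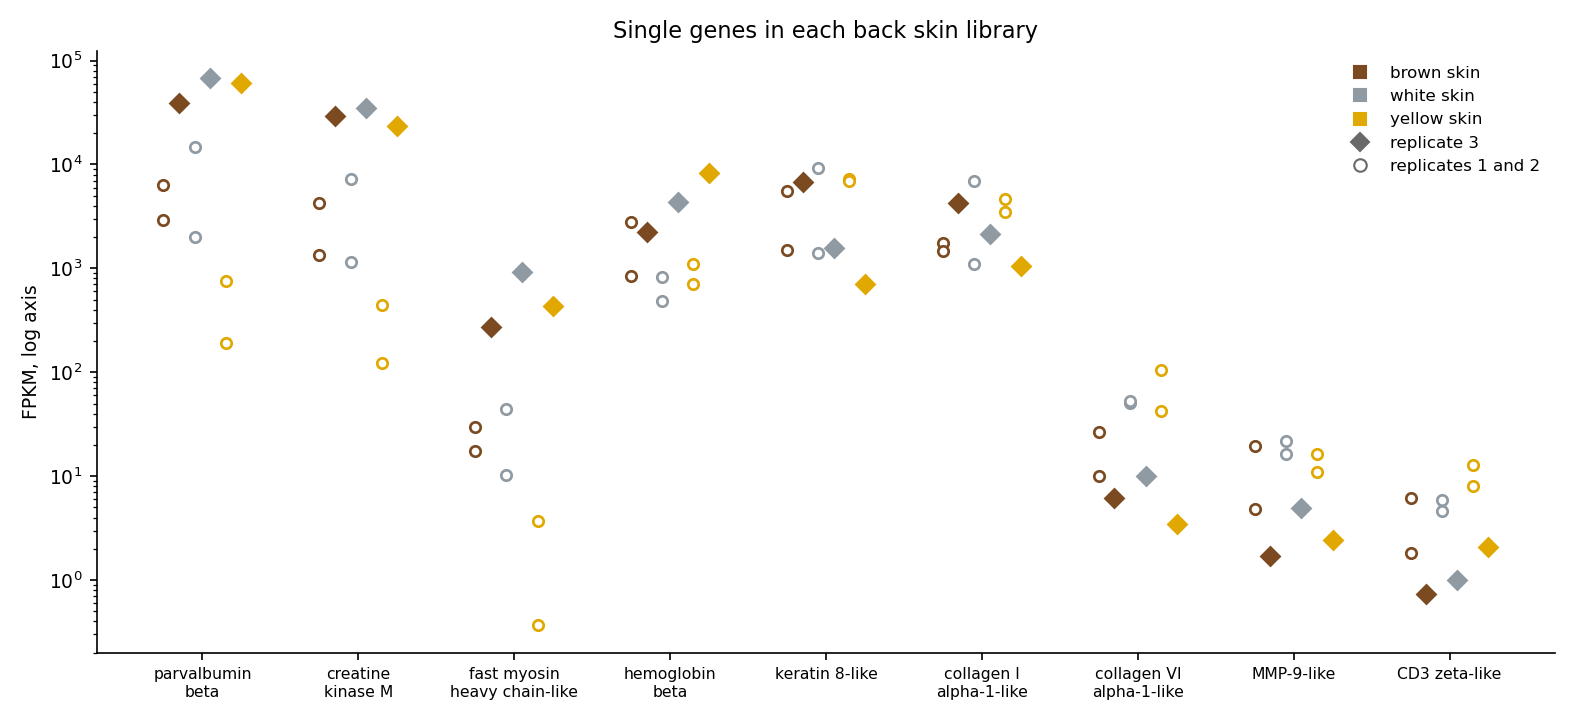
FPKM (log axis) of 9 genes in each library; colors and symbols mark skin color and replicate as in the plot of shares. Filled diamonds (replicate 3) lie above all open circles for parvalbumin beta, creatine kinase M and the fast myosin heavy chain, overlap them for hemoglobin beta, keratin 8-like and collagen I, and lie below both circles of their own color for the last 3 genes.

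Fat and nerve lists gave few calls. Of 15 tested fat cell genes 2 rose (13.3%, against 4.76% of all genes). Both are adiponectin-like and passed the filter on low values only with the help of the libraries numbered 3. LOC113045969, a copy of this fat cell hormone, had FPKM values of 2.18, 0.643 and 9.73 in brown, 0.926, 5.55 and 13.4 in white and 0.0381, 0.920 and 4.53 in yellow skin. Replicate 3 was highest in each color, although white replicate 2 exceeded yellow replicate 3, and the rise was 2.07 ± 0.41 (adjusted p = 0.0272). Among 34 tested nerve and glia genes 2 rose (5.88%, near the 4.76% of all genes), and 16 (47.1%, against 12.1% of all genes) lay above both other libraries in each color. Both risen genes were copies of myelin basic protein-like, a protein of the myelin sheath. LOC113060025 was at 29.4, 16.1 and 46.1 in brown, 14.1, 37.1 and 91.1 in white and 13.8, 11.8 and 55.02 in yellow skin, and rose by 1.67 ± 0.39 (adjusted p = 0.0435). Its groups did not overlap. LOC113062336 rose by 1.62 ± 0.35 (adjusted p = 0.0362), and there white replicate 2 (21.7) exceeded yellow replicate 3 (20.8). Of tendon and fascia genes, 0 of 11 passed.

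Vessel wall genes gave 1 call of 23, a rise (4.35%, near the 4.76% of all genes). The called gene was transgelin-like LOC113115441, an actin-binding protein (1.96 ± 0.41, adjusted p = 0.0308). It was at 324, 467 and 633 in replicate 3 of brown, white and yellow skin and 66.2 to 249 elsewhere. Among 68 stress genes 9 rose (13.2%, against 4.76% of all genes), with a list median of 0.12. Of the 62 that met the filter on low values in the other 6 libraries by themselves, 4 rose. The HSP90-alpha 1-like gene LOC113068517 belongs to a chaperone that folds myosin in zebrafish muscle. It was at 0.995, 0.181 and 11.9 in brown, 0.538, 5.13 and 17.9 in white and 0.239, 0.388 and 9.09 in yellow skin, and rose by 2.88 ± 0.41 (adjusted p = 0.0186) without overlap. This gene met that filter only with the help of the libraries numbered 3.

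Cytosolic ribosomal protein genes rose widely, with 96 of 194 tested called higher and 0 lower (49.5% higher, against 4.76% of all genes). The median log2 difference was 1.24. 40S ribosomal protein S2 (LOC113046648) had FPKM values of 2970, 3782 and 9902 in brown, 2591, 2445 and 6149 in white and 2795, 2081 and 5759 in yellow skin. The groups did not overlap (1.37 ± 0.22, adjusted p = 0.0186). These calls depended on single libraries and on the scaling. Without brown replicate 1, 4 ribosomal and 121 muscle genes rose, without white replicate 1 there were 3 and 104, and without white replicate 3 or any 1 yellow library 0 of either. With TPM 3 ribosomal genes rose and 3 fell (1.53% each, against 2.16% and 47.9% of all genes). The list median in TPM of 0.06 was 1.00 above the median of all genes. Under quantile scaling 1 rose, and the list median was 0.01, where that of all genes was -0.06. The value of LOC113046648 was -0.37 there. As a share of summed FPKM the list was not set apart, at 24.9% to 35.6% in replicates 3 and 22.7% to 40.03% in the others. Nuclear subunits of oxidative phosphorylation, which makes ATP in mitochondria, had 84 of 156 tested genes risen (53.8%, against 4.76% of all genes). Of the 156, 0 fell, and the median was 1.26. Cytochrome c oxidase subunit 6B1-like LOC113059951 was at 339.6, 380.4 and 271 in replicate 3 of brown, white and yellow skin and at 100.4 to 140.0 in the others, a rise of 1.45 ± 0.26 (adjusted p = 0.0218). With TPM, 11 of these genes rose (7.01%, against 2.16% of all genes) and 6 fell (3.82%, against 47.9%). Their median in TPM was 0.14, where that of all genes was -0.94. Under quantile scaling 13 rose at a median of 0.85. Without brown replicate 1 there were 38 and without white replicate 1 there were 28.

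Ribosomal and oxidative phosphorylation genes are short, and short genes outside the muscle list were higher in replicates 3. Of genes of 500 to 1000 bases, 11.1% rose, at a median log2 difference of 0.34. Of genes over 6000 bases, 2.23% rose, at a median of -0.20. These length groups leave out only the muscle list and still hold the ribosomal and oxidative phosphorylation genes themselves. Outside the muscle list, genes over 3000 bases took 25.4%, 31.1% and 29.0% of the reads in replicate 3 of brown, white and yellow skin and 34.9% to 45.8% in the other 6 libraries, without overlap. With the length trend of each library removed, a step added after seeing the data, 10 ribosomal and 44 oxidative phosphorylation genes rose, at list medians of 0.80 and 0.91, and 151 muscle genes rose, at a median of 2.80. The trend was fitted with the ribosomal and oxidative phosphorylation genes included, so removing it can take away part of their own rise. No source used here gives an RNA integrity value, and the part of gene length in these rises was otherwise not tested.

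**Figure D4:**
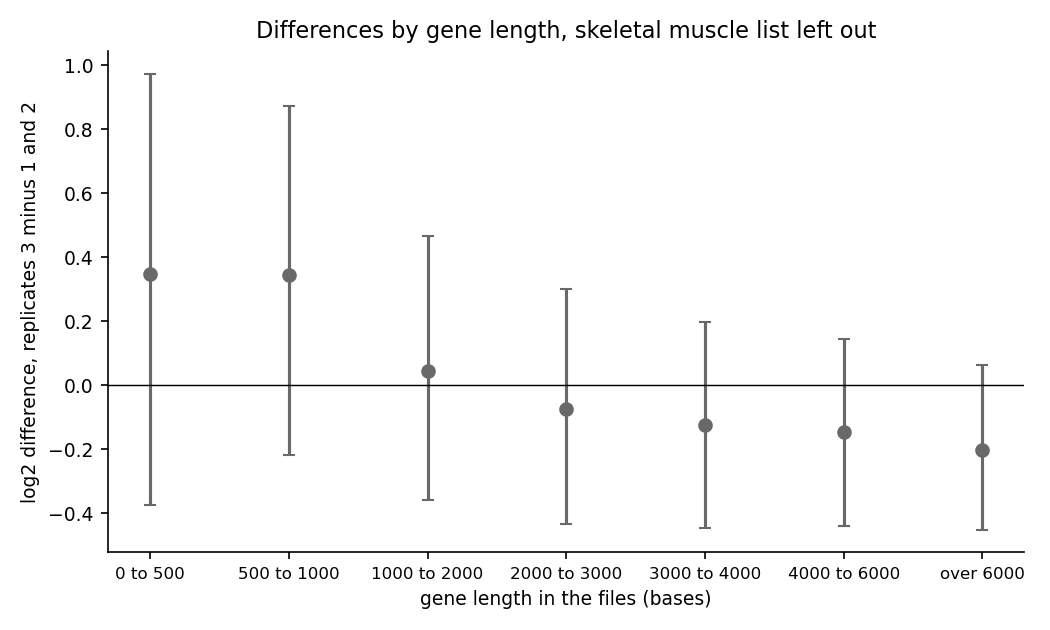
Log2 difference of FPKM between replicates 3 and replicates 1 and 2 (y axis) by gene length in bases (x axis) for tested genes outside the skeletal muscle list. Points are medians and bars span the middle 50% of genes; the median falls from 0.35 for genes up to 500 bases to -0.20 for genes over 6000 bases.

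Blood genes were not uniformly higher. Of 23 tested red blood cell genes 3 rose, a larger share than the 4.76% of all genes. However, none of the 6 tested hemoglobin genes passed (adjusted p of 0.0545 to 0.236, with log2 differences of 1.15 to 2.26). Hemoglobin beta (LOC113082649, chromosome 5), which carries oxygen in red cells, had FPKM values of 845, 2797 and 2254 in brown, 832, 482 and 4401 in white and 704, 1093 and 8322 in yellow skin. Replicate 3 was highest in white and yellow but lay between the others in brown, where replicate 2 was higher (2.20 ± 0.57, adjusted p = 0.0617). The red blood cell list took 0.366%, 0.846% and 1.47% of summed FPKM in replicate 3 of brown, white and yellow skin and 0.2198% to 0.855% in the others. The called members were not hemoglobins. They included protein 4.1-like LOC113068735 and erythrocytic beta spectrin-like LOC113060471, parts of the membrane skeleton, at 1.93 ± 0.35 (adjusted p = 0.0215) and 1.20 ± 0.21 (adjusted p = 0.0208). LOC113068735 was at 1.48, 0.851 and 3.97 in brown, 0.489, 2.89 and 9.13 in white and 0.113, 0.314 and 5.87 in yellow skin, with every library numbered 3 above the other 6. None of the 3 risen members met the filter on low values in the other 6 libraries by themselves. The list's median of 0.59 was -0.21 in TPM, 0.72 above the median of all genes. Without brown replicate 2, 12 of 23 members rose (52.2%, against 12.2% of all genes).

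In the epidermis, 0 of 119 tested keratinocyte genes passed in either direction, at a median log2 difference of -0.48. Keratin 8-like LOC113041112, a filament protein of simple epithelia and of fish epidermis, had FPKM values of 5499, 1511 and 6816 in brown, 9218, 1398 and 1555 in white and 7292, 6906 and 710.5 in yellow skin. It was lowest in replicate 3 of yellow skin, highest in replicate 3 of brown skin and mixed in white (-1.09 ± 0.87, adjusted p = 0.476). Desmoglein-3-like LOC113063268, a cell adhesion protein of desmosomes, was at 181, 24.6 and 108 in brown, 127, 33.3 and 23.1 in white and 193, 305 and 6.33 in yellow skin (-1.95 ± 1.0243, adjusted p = 0.287). The keratinocyte list took 2.13%, 0.760% and 0.739% of summed FPKM in replicate 3 of brown, white and yellow skin, and 1.10% to 4.84% in the other 6. By this share, replicate 3 was below both others in white and yellow skin, and in brown it was between them. By summed FPKM, replicate 3 was the highest in brown (24714, against 15106.5 and 11327.3). It lay between the others in white (8110.5, against 20447.8 and 5602) and was the lowest in yellow (7722, against 19145.4 and 17828.1). The log2 difference was below 0 in 89 of 119 members, against 14651 of the 27420 genes tested. With TPM 70 of 134 members fell (52.2%, against 47.9% of all genes), and without brown replicate 2 there were 8 of 116 (6.90%, against 9.86%), both near or under the share over all genes.

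Of the 34 tested genes of mucous and club cells, 2 rose (5.88%, near the 4.76% of all genes), while the list median was -0.51. Both are lectins. Nattectin-like LOC113091638 was at 13.1, 3.40 and 85.9 in brown, 7.28, 39.3 and 252 in white and 0.119, 2.81 and 107 in yellow skin, and rose by 4.32 ± 0.70 (adjusted p = 0.0186). Beta-galactoside-binding lectin-like LOC113042925 rose by 2.45 ± 0.51 (adjusted p = 0.03), from 26.1 to 160.3 in the libraries numbered 1 and 2 to 179 to 341. In both genes white replicate 2 was the highest of the libraries numbered 1 and 2, and the groups did not overlap.

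The dermis list also gave few calls. Of 111 tested fibroblast genes 1 fell and 0 rose, at a median of -0.16, where 0.638% of all tested genes fell. Collagen I alpha-1-like LOC113056433, the main fiber of the dermis and scales, was at 1764, 1479 and 4268 in brown, 1091, 6930 and 2154 in white and 4616, 3469 and 1056 in yellow skin. Replicate 3 was the highest in brown, the lowest in yellow and between the others in white (-0.29 ± 0.68, adjusted p = 0.822). The member that fell was collagen VI alpha-1-like LOC113055322 (chromosome 36, 13369329 to 13402028), a microfibril collagen around cells. Its FPKM was 26.6, 10.1 and 6.14 in brown, 50.5, 53.5 and 10.1 in white and 42.2, 104 and 3.49 in yellow skin. Replicate 3 was below both others in each color, with brown replicate 2 level with white replicate 3, and the fall of -2.49 ± 0.53 (adjusted p = 0.0343) was the largest among named genes on the log2(FPKM + 1) scale. Of all tested collagen VI chains, 2 of 11 fell, against 0.638% of all genes, and 1 of these 2 lies outside the fibroblast list. In 10 of the 11 the log2 difference was below 0. Their share of summed FPKM was 0.0200% to 0.0295% in replicates 3 and 0.0381% to 0.150% in the others, without overlap. Their summed FPKM did overlap, at 222 to 315 against 238 to 766. Nidogen-1-like LOC113112323, a basement membrane linker named after its values were seen, fell by 1.46 on the log2 scale (standard error 0.29, adjusted p = 0.0257). It was at 4.53 to 7.05 in replicates 3 and at 10.98 to 23.6 in the others, without overlap.

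Of 54 scale, bone and cartilage genes, 1 rose and 1 fell, at a median of -0.41. Over all tested genes, 4.76% rose and 0.638% fell. The one that rose was osteocalcin 2b-like LOC113088086, named for a bone matrix protein, at 0.123, 0.176 and 1.20 in brown, 0.214, 0.685 and 6.14 in white and 0.238, 0.0631 and 5.46 in yellow skin (1.92 ± 0.31, adjusted p = 0.0186). It reached an FPKM of 1 in no library other than those numbered 3, so it was tested only because it is high there. The one that fell was tartrate-resistant acid phosphatase-like LOC113050892, an enzyme of bone-resorbing cells and macrophages. It was at 5.61, 0.769 and 0.844 in brown, 11.4, 9.32 and 1.01 in white and 3.35, 4.66 and 0.0986 in yellow skin (-1.85 ± 0.44, adjusted p = 0.0481). In brown, replicate 3 was above replicate 2, so the fall was not shared by every pair. Pigment cell genes gave 0 calls among 24 tested, at a median of 0.05. Among vessel lining genes 1 of 31 rose (3.23%, against 4.76% of all genes). Among dividing cell genes 1 of 47 rose (2.13%) and 1 fell. The risen dividing cell gene met the filter on low values only with the help of the libraries numbered 3. Ion transport cells (9 tested) and clotting cells (8 tested) gave 0 calls. The dividing cell list had 40 of 47 members below 0 and 12 (25.5%, against 8.7% of all genes) below both other libraries in each color, at a median of -0.43.

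**Figure D5:**
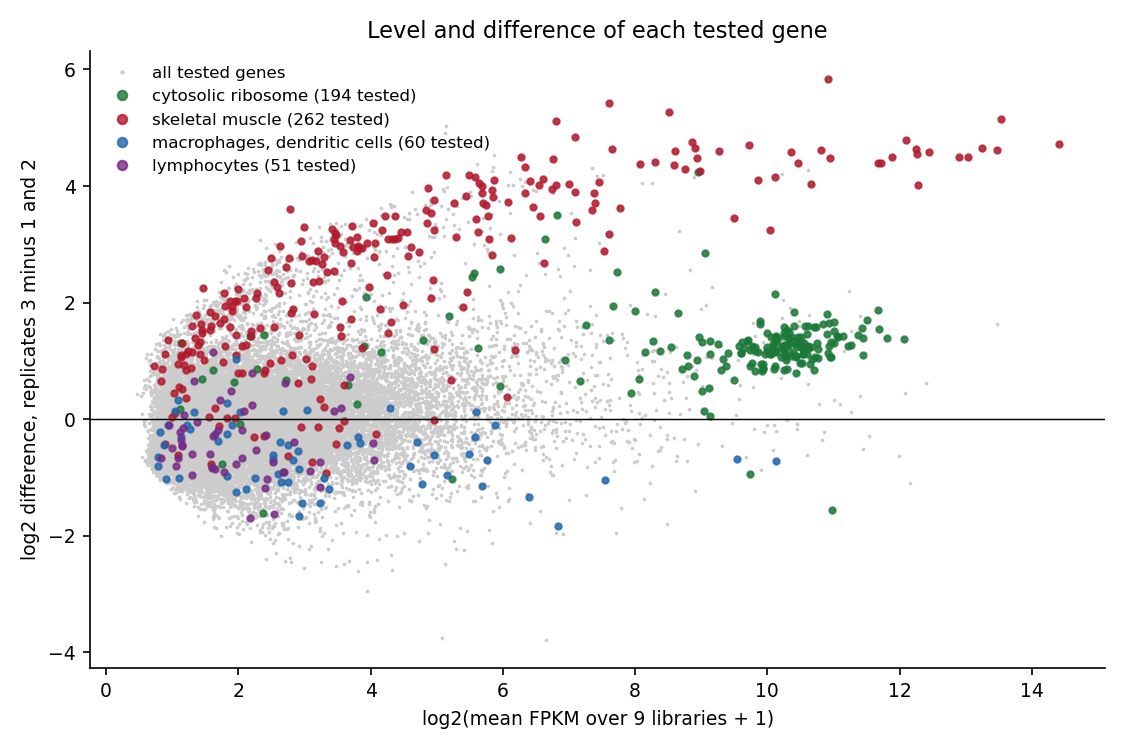
Log2 difference of FPKM between replicates 3 and replicates 1 and 2 (y axis) against the log2 of mean FPKM plus 1 over the 9 libraries (x axis) for all tested genes (grey) and 4 gene lists. Muscle genes reach the highest levels and differences, ribosomal genes form a compact group near 1.24, and most macrophage and lymphocyte genes lie below 0.

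Immune genes lay on the lower side. Of 60 tested macrophage and dendritic cell genes 0 passed, although 50 (83.3%, against 53.4% of all genes) had a log2 difference below 0, at a median of -0.62. The list took 0.193%, 0.179% and 0.159% of summed FPKM in replicate 3 of brown, white and yellow skin and 0.248% to 1.06% in the other 6, without overlap. Its summed FPKM did overlap, at 1665 to 2239 against 1548 to 4970, and the summed FPKM of all genes was 1045474 to 1159116 in replicates 3 and 407297 to 623889 in the others. With these totals, 9 of the 26 lists had lower shares of summed FPKM in replicates 3 without overlap, among them the stress and the carbohydrate and protein turnover lists, and 0 of 26 had a lower summed FPKM without overlap. A lower share was thus not particular to immune genes. The class II histocompatibility beta chain gene LOC113070741, which presents antigen to T cells, was at 122, 24.3 and 44.4 in brown, 196, 151 and 36.6 in white and 219.6, 197 and 25.1 in yellow skin. It was lowest in replicate 3 of white and yellow but not of brown skin (-1.84 ± 0.60, adjusted p = 0.12). Without brown replicate 2, 18 of 60 macrophage genes fell (30.0%, against 9.86% of all genes). In that setting 28.3% of scale, bone and cartilage genes and 29.8% of dividing cell genes fell too. With all libraries, 81.5% and 85.1% of these 2 lists had a log2 difference below 0, so neither count was particular to immune genes.

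Of 51 tested lymphocyte genes 3 fell and 0 rose, at a median of -0.47, where 0.638% of all tested genes fell. Among these 51, 18 (35.3%, against 8.7% of all genes) lay below both other libraries in each color. Their share of reads overlapped, at 0.0151% to 0.0379% in replicates 3 and 0.0317% to 0.0660% in the others. CD3 zeta-like LOC113088482 (chromosome 1, 16500930 to 16510807), a signaling chain of the T cell receptor, was at 6.12, 1.80 and 0.734 in brown, 5.88, 4.59 and 0.995 in white and 8.12, 12.96 and 2.06 in yellow skin. Yellow replicate 3 was above brown replicate 2, but within each color replicate 3 was lowest, and the difference was -1.63 ± 0.32 (adjusted p = 0.0263). A second CD3 zeta-like gene, LOC113044698, fell by 1.025 on the log2 scale (standard error 0.23, adjusted p = 0.0392), with 2.90, 1.22 and 2.46 in replicate 3 of brown, white and yellow skin and 3.33 to 7.901 elsewhere. CD2-like LOC113100114, an adhesion receptor of T cells named after its values were seen, was at 0.561 to 1.64 in replicates 3 and 1.19 to 5.99 in the others (-1.28 ± 0.30, adjusted p = 0.0468). The most abundant member did not share this: CD3 epsilon-like LOC113058859 had a log2 difference of -0.40 ± 0.30 (adjusted p = 0.44).

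Chemokine receptors, a family picked out after its values were seen, had 5 of 27 tested genes fallen and 15 below both others in each color. Over all tested genes, 0.638% fell and 8.7% lay below both. CCR4-like LOC113045345, a homing receptor of T cells, was at 3.01, 2.13 and 0.321 in brown, 4.01, 7.84 and 2.42 in white and 4.34, 4.84 and 0.446 in yellow skin (-1.44 ± 0.27, adjusted p = 0.0223). CXCR5-like LOC113118690, a receptor of B cells and helper T cells, was at 2.67, 2.66 and 0.313 in brown, 3.12, 3.99 and 0.478 in white and 4.98, 5.45 and 2.64 in yellow skin (-1.29 ± 0.22, adjusted p = 0.0191). In both genes replicate 3 was lowest in each color. White replicate 3 overlapped with the other libraries in CCR4-like, and no library numbered 3 did in CXCR5-like.

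Of 45 granulocyte genes 2 fell, where 0.638% of all tested genes did. Below 0 were 62.2% of members, against 53.4% of all genes. The list's share of summed FPKM overlapped, at 0.126% to 0.274% in replicates 3 and 0.150% to 0.386% in the others. Summed FPKM was 3172, 1509 and 1314 in replicate 3 of brown, white and yellow skin and 776 to 1809 in the others. MMP-9-like LOC113077664, a gelatinase released by neutrophils, had FPKM values of 19.6, 4.82 and 1.70 in brown, 16.4, 22.02 and 4.94 in white and 16.3, 11.1 and 2.43 in yellow skin. Replicate 3 was lowest in each color, and only brown replicate 2 reached into its range (-1.95 ± 0.39, adjusted p = 0.0278). The granulocyte colony-stimulating factor receptor-like gene LOC113116507 fell by 0.99 on the log2 scale (standard error 0.22, adjusted p = 0.0414), with 0.211 to 1.16 in replicates 3 and 1.68 to 2.92 in the others. Of 50 interferon response genes 3 fell, where 0.638% of all tested genes did. The interferon-induced very large GTPase 1-like gene LOC113046830, named for its induction by interferon, was at 4.66, 1.91 and 0.662 in brown, 2.80, 2.23 and 1.17 in white and 4.08, 3.86 and 0.548 in yellow skin. Replicates 3 lay below all other libraries (-1.22 ± 0.28, adjusted p = 0.0406). The most abundant gene of the list, interferon regulatory factor 1-like LOC113063787, did not pass (-0.24 ± 0.44, adjusted p = 0.773). In the complement list 1 gene of 41 fell, against 0.638% of all genes. It was complement C7-like LOC113096391, part of the membrane attack complex (-1.70 ± 0.38, adjusted p = 0.0397). Its FPKM was 0.794 to 2.94 in replicates 3 and 3.18 to 14.1 in the others.

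The remaining large falls belonged to no tissue list. Apelin (LOC113058037), a peptide hormone of vessels, had 1.32, 1.46 and 0 in brown, 5.80, 5.95 and 0 in white and 1.61, 4.93 and 0 in yellow skin, with 0 reads in all libraries numbered 3. With the group's total set to a floor of 3 reads, it was at least 12.6-fold lower there (adjusted p = 0.019 in limma). A histone H3.3 gene, LOC113049692, was at 4.98, 4.98 and 2.46 in brown, 18.4, 17.8 and 1.20 in white and 13.6, 12.8 and 0.319 in yellow skin (-2.44 ± 0.44, adjusted p = 0.0215). Replicates 3 lay below all others, and the drop was small in brown. Galectin-3-binding protein A-like LOC113053117 fell by 2.17 on the log2 scale (standard error 0.37, adjusted p = 0.0194), from 3.32 to 16.5 in the libraries numbered 1 and 2 to 0.934 to 1.65. APCDD1-like LOC113112396, a membrane inhibitor of Wnt, was one of the 8 largest named falls, at 5.43, 1.48 and 1.00 in brown, 8.08, 18.4 and 0.509 in white and 4.99, 10.4 and 1.04 in yellow skin (-2.05 ± 0.48, adjusted p = 0.0467). Replicates 3 were below every other library.

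Beside these falls stand the measures that moved with the same libraries. The muscle share was highest, reads on genes over 3000 bases were lowest and the denominator per read was lowest in all 3 libraries numbered 3. The denominator is a multiple of a factor computed from the gene reads, so it is not a measure separate from the make-up of the libraries. With each library's muscle score as a covariate, 0 genes passed in limma in either direction, with 1536 at an unadjusted p under 0.05. The score and the replicate number run together in these 9 libraries, and their parts in these falls cannot be told apart.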

How the data were processed

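RNA-seq of 9 back skin libraries was used, with 1 table of 74297 genes per library. The authors deposited FPKM values per gene; the submitters' processing notes list HISAT2 and StringTie with no version. Genome build, strand setting and the rule for multiply matching reads: not given in the sources used here. Gene IDs and positions are the files' own; 72068 IDs matched the RefSeq table of assembly ASM336829v1, whose chromosome names are used. FPKM times gene length gave whole reads for 100% of values (tolerance 0.001); precision is that of 9 libraries, whose p-values cover the spread between these samples.

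The test was limma 3.58.1 (R 4.3.3, limma-trend, two-sided) on log2(FPKM + 1), with color as a block and a term for replicate 3, on genes reaching FPKM 1 in 3 or more libraries. Differences stay on that scale and so understate changes of low genes. The procedure was run on simulated data with 50 genes changed at each of 4 sizes. It recovered 2% of them at a log2 change of 1, 60% at 2, 76% at 3 and 84% at 4. Of the unchanged genes, 5 were called. Whether these values hold for the libraries compared here was not tested. A gene or list without calls can therefore still differ, above all at a log2 change near 1. The 26 lists match product names. The contrast, members and lists were chosen with earlier results of these data known. Named genes are the 8 largest rises and falls with the same order in each color, up to 4 most abundant and 2 lowest-p members per list role, and hemoglobins and parvalbumins by range; others are marked as named after their values were seen. No sequence is printed, as none was in the tables used. Of the genes this rule names, 1 of the large falls is not reported here.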

Additional observations from a re-analysis of the deposited data

Results flagged for a closer look

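Among the 6 libraries numbered 1 and 2, single libraries stood apart from the other 5 in 5 of 31 quantities examined, by a gap criterion that chance meets in about 1 group of 20. Brown replicate 2 had the fewest reads on genes (13772601), the fewest genes detected (39217) and the highest mitochondrial share of reads (2.94%). White replicate 2 had the lowest share of summed FPKM on interferon response genes (0.0361%) and the lowest share of reads on rows without a gene name (1.01%). No explanation was weighed.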

How the results depend on the processing

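With 1306 genes higher and 175 lower as reported, the other settings gave 0 higher and 0 lower with no filter on low values (9163 of 56730 genes at an unadjusted p under 0.05 in limma) or with the muscle score as a covariate, 75 lower with a filter of FPKM at least 5, 697 higher and 15492 lower in TPM, 719 and 74 with quantile scaling, 583 higher with scaling to reads outside the muscle list, 21 lower with voom on recovered reads, and 5152 and 5095 with array weights, whose estimation did not converge. Leaving out 1 library gave 0 to 3250 higher and 0 to 2637 lower. Without the brown libraries 3166 rose and 2664 fell, without brown replicates 2 and 3 together 3167 and 2604, and without the white or the yellow libraries 0 and 0. The cause of these shifts was not tested. Risen muscle genes numbered 157 as reported, 0 with no filter, 77 with quantile scaling, 102 scaled outside the muscle list, 0 without the white or the yellow libraries and 0 to 195 without 1 library. With the muscle score as a covariate, which is made from that list, 0 of its members rose, at a median of -0.03. The interaction test called 0 genes in each of 4 settings run. Reversed values were -0.366 (LOC113046648), -0.219 (LOC113067156) and -0.051 (LOC113091727), ribosomal genes under quantile scaling, and -0.288 (LOC113060149), -0.406 (LOC113084607), -0.214 (LOC113106880) and -0.788 (LOC113116239) with the muscle covariate. No paired analysis was possible because the replicate number is itself the term compared. Deviations from color means correlated at 0.41 to 0.67 between libraries numbered 1, -0.30 to 0.22 between those numbered 2 and 0.19 to 0.77 between those numbered 3. With unequal numbers, brown replicate 1 and yellow replicate 2 stood at 0.61, and white replicate 1 and yellow replicate 3 at -0.69. Equal numbers were thus not always the closest. The deviations within a color sum to 0 by construction.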
